A study of Homo sapiens with 10 samples.

Results

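The 10 genes described here mark where a cell stands between an epithelial and a mesenchymal state. They comprise 3 epithelial genes (CDH1, EPCAM and ESRP1), 2 mesenchymal genes (CDH2 and VIM) and 5 transcriptional repressors (ZEB1, ZEB2, SNAI1, SNAI2 and TWIST1). They were taken by name from the 33551 rows of the count table, where all 10 were found, and all 10 passed the filter on low counts that kept 17978 genes. The libraries came from A549, an established cell line grown from a human lung adenocarcinoma and labelled as alveolar basal epithelial. There were 5 A549 lines: WT (wild type), KO (knockout of ABCA3, by its label), and L101P, E292V and E690K, each named for a variant of ABCA3, the lipid transporter of surfactant-storing lamellar bodies. Each line was sequenced untreated and after an overnight exposure, at a multiplicity of infection of 20, to a VSV-G lentiviral vector that carries ABCA3 fused to GFP. That makes 10 libraries, 1 for each line and vector status. Each genotype is 1 line, how the lines were made is not given in the sources used here, and no line was sampled in replicate.

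Epithelial cells hold together through E-cadherin, the product of CDH1, which anchors to the actin cytoskeleton through catenins. In an epithelial-mesenchymal transition the SNAI, ZEB and TWIST factors repress CDH1 and other epithelial genes by binding short E-box sequences, while N-cadherin (CDH2) and the intermediate filament protein vimentin (VIM) become more abundant. The splicing regulator ESRP1, which keeps epithelial isoforms in place, and the adhesion molecule EPCAM belong to the epithelial side. A549 cells are known to carry markers of both states.

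Total counts ran from 59430095 to 96811421 per library. Low counts were mostly even (81.4% of the values from 1 to 10), as when both mates of a read pair are counted. The 95% Wilson intervals below therefore rest on pairs of reads (the count over 2) and cover counting error only. Levels are given as CPM, the count per 1000000 counts of the scaled library total. In the KO pair the targeted gene went against the labels: ABCA3 was at 600 CPM in the library labelled KO untreated and at 26.0 CPM in the library labelled KO transduced, and EGFP at 37.9 and 0.0497 CPM. EGFP, which marks the vector, was also read in the other untreated libraries: it was at 69.7 CPM untreated and 151 transduced in WT, 1.01 and 36.9 in L101P, 20.2 and 66.0 in E292V, and 16.5 and 18.5 in E690K. ABCA3 was lower in the transduced than in the untreated L101P library (922 against 1151 CPM). The libraries labelled untreated therefore do not all lack EGFP reads, and the E690K pair differed little in them. Where the reads in untreated libraries came from was not tested. The epithelial keratins KRT8 (3673 to 7946 CPM) and KRT18 (1587 to 3334 CPM) were high in every library, and of the other lung markers NKX2-1, SFTPA1, SFTPB and SFTPC had at most 26 counts. Of 10 fibroblast markers, 7 stayed under 1 CPM in every library (POSTN had 0 counts throughout), as did all 6 endothelial markers. The other fibroblast markers were COL1A1 (14.2 to 116 CPM), THY1 (7.87 to 28.8 CPM) and LUM (1.57 to 4.05 CPM). Of 7 blood markers, 5 stayed under 1 CPM, with PTPRC at 10 counts or fewer and CD3E at 0. CD14 was at 1.16 to 5.47 CPM and LYZ reached 1.01 CPM. In bulk RNA, fewer cells of a type and less RNA per cell cannot be told apart.

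E-boxes are the sites that ZEB, SNAI and TWIST proteins recognise, and the promoters of ZEB2 and CDH2, whose levels varied most between libraries among the genes with an entry, and of ZEB1, whose level varied least of the 10 genes, are therefore shown. The sequences are RefSeq's, on GRCh38.p14, and 4 of the 10 genes matched the promoter table (CDH2, VIM, ZEB1 and ZEB2). Each run holds the 250 bases before a start site, 5′ to 3′ on the strand of the gene, and capitals mark every CANNTG. The windows are chr2:144520120-144520369 (minus strand) for ZEB2, chr18:28177131-28177380 (minus strand) for CDH2 and chr10:31318966-31319215 (plus strand) for ZEB1. The table gives 1 window for VIM, 2 for CDH2 and 7 for ZEB1, and the ZEB1 window shown is the one with the most matches to CAGGTG.
ZEB2: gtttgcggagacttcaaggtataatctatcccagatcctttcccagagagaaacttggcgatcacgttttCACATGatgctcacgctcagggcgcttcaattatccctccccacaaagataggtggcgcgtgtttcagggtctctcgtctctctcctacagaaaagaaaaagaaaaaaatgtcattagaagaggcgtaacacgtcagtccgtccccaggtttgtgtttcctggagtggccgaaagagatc
CDH2: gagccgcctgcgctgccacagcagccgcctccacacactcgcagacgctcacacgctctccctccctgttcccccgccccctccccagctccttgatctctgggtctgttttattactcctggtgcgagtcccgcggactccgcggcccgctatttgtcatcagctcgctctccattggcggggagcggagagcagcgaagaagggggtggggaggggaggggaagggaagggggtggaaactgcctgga
ZEB1: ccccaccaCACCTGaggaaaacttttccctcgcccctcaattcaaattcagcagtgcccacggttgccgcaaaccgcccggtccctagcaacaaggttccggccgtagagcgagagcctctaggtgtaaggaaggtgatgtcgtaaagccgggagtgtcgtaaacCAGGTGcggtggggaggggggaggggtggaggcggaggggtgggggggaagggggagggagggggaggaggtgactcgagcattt

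CAGGTG, the form of E-box bound by ZEB and SNAI proteins, was searched on both strands, so that CACCTG is the same site read from the other strand, and every CAGGTG is also a CANNTG. The ZEB1 window holds CAGGTG at 2 places. The ZEB2 window holds 1 E-box of the wider form and none of the narrow one, and the CDH2 window shown holds neither, whereas the other CDH2 window holds 1 of the wider form. Of the 7 ZEB1 windows 5 hold no CAGGTG, so the 2 matches shown are the highest of 7 windows and cannot be read against the share for single windows. Of 34943 promoter windows of the same length, 17.5% hold at least 1 CAGGTG, 2.53% hold 2 or more and 61.8% hold a CANNTG. A match describes the letters of these windows, and no binding was measured.

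The 5 lines differed in 7 of the 10 genes by a test of line over all 10 libraries (edgeR adjusted p under 0.05, in a fit of line and vector with 4 residual degrees of freedom), against 13.0% of all genes tested. These were CDH2, VIM, EPCAM, ZEB2, SNAI1, SNAI2 and TWIST1, and CDH1, ZEB1 and ESRP1 did not pass. The 10 genes were chosen with earlier results of these data known, so the share over all genes is given as a description. The error in this test is the departure of the 10 libraries from additive effects of line and vector, moderated by information from all genes tested. A call is therefore about these cultures of these lines, with no independent clone behind any genotype. ZEB2 and SNAI1 passed under every alternative in which they were tested, and the 5 others each lost the call in at least 1. The transduced E292V library was the highest of the 10 for 7 genes, namely both mesenchymal genes and all 5 repressors.

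**Figure D1:**
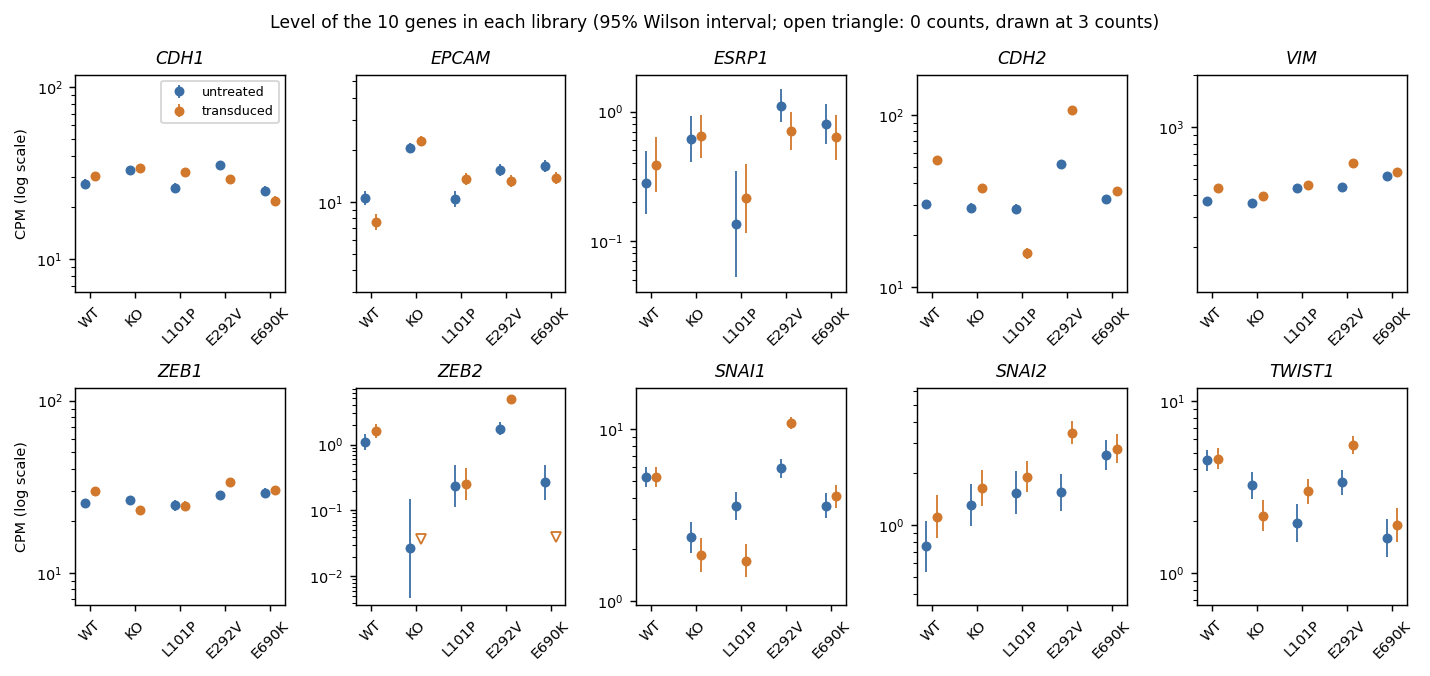
Level of each of the 10 genes in CPM (log axis) in the untreated (blue) and transduced (orange) library of each line, with 95% Wilson intervals on read pairs; open triangles are libraries with 0 counts, drawn at the level of 3 counts. CDH1 and ZEB1 lie within a narrow band in the 10 libraries, and the transduced E292V library is the highest of the 10 for CDH2, VIM and the 5 repressors.

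Among the epithelial genes, CDH1 (chromosome 16, 68737225 to 68835548, plus strand, in the GENCODE 29 annotation of GRCh38, as for all positions below) was the steadiest. Its level in the untreated and then the transduced library was 27.5 and 30.3 CPM in WT, 32.9 and 33.8 in KO, 25.9 and 32.1 in L101P, 35.4 and 29.3 in E292V, and 25.0 and 21.8 in E690K. E690K held the 2 lowest values, and the ranges of the other 4 lines overlapped one another except that KO lay above WT and L101P. The highest library was 1.62 times the lowest, and the line effect did not pass (edgeR adjusted p 0.0957). It passed without either L101P library (edgeR adjusted p 0.00320 without the untreated and 0.00306 without the transduced library) and under the DESeq2 test (adjusted p 0.0243).

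EPCAM, a homophilic adhesion molecule of epithelial cells (chromosome 2, 47345158 to 47387601, plus strand), was highest in the KO line. It was at 10.6 and 7.62 CPM in WT, 20.5 and 22.5 in KO, 10.4 and 13.5 in L101P, 15.4 and 13.2 in E292V, and 16.0 and 13.7 in E690K. Both KO libraries lay above the other 8, and the lowest level was that of transduced WT. The line effect passed (edgeR adjusted p 0.00374), but not without the KO pair (edgeR adjusted p 0.0832).

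ESRP1, which directs epithelial splicing of genes such as CD44 and FGFR2 (chromosome 8, 94641074 to 94707466, plus strand), was close to the limit of detection, with 8 to 90 counts per library. Its level was 0.282 and 0.389 CPM in WT, 0.613 and 0.646 in KO, 0.134 and 0.213 in L101P, 1.11 and 0.708 in E292V, and 0.803 and 0.631 in E690K. The L101P libraries were lowest, and the interval of the transduced one (0.116 to 0.391 CPM) ended below that of the transduced E292V library (0.507 to 0.989 CPM). The line effect did not pass (edgeR adjusted p 0.0592) and did so under the DESeq2 test (adjusted p 0.0147). The paralog ESRP2 had 0 to 22 counts per library.

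N-cadherin, encoded by CDH2 (chromosome 18, 27950966 to 28177446, minus strand), varied most among the 5 genes that stayed above 5 CPM in every library. It was at 30.2 and 54.4 CPM in WT, 28.9 and 37.8 in KO, 28.4 and 15.7 in L101P, 51.6 and 107 in E292V, and 32.3 and 36.3 in E690K. Transduced E292V stood highest and transduced L101P lowest, a ratio of 6.79, and the WT pair overlapped the E292V pair. The line effect (edgeR adjusted p 0.0148) rested on E292V: it was lost without the E292V pair (edgeR adjusted p 0.271) or its transduced library (0.0743), and under the DESeq2 test (adjusted p 0.0586).

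VIM (chromosome 10, 17228259 to 17237593, plus strand) was the most abundant of the 10 genes per length of transcript, with a median of 208 CPM per kilobase against 7.92 for EPCAM and 7.91 for CDH2, the next 2. Its level was 372 and 442 CPM in WT, 362 and 399 in KO, 441 and 458 in L101P, 448 and 615 in E292V, and 517 and 545 in E690K. The highest library was 1.70 times the lowest, and the line effect passed (edgeR adjusted p 0.00949), though not without the KO pair (edgeR adjusted p 0.0678). The antisense gene VIM-AS1, which shares exonic bases with VIM, had 49 to 135 counts where VIM had 26292 to 59043.

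Of the repressors, the zinc-finger gene ZEB1 (chromosome 10, 31318495 to 31529814, plus strand) was steady and ZEB2 (chromosome 2, 144364364 to 144524583, minus strand) was not. ZEB1 was at 25.4 and 29.9 CPM in WT, 26.4 and 23.0 in KO, 24.7 and 24.6 in L101P, 28.2 and 33.8 in E292V, and 29.2 and 30.2 in E690K, and the line effect did not pass (edgeR adjusted p 0.180). ZEB2 had 94 and 132 counts in WT, 2 and 0 in KO, 14 and 24 in L101P, 142 and 472 in E292V, and 20 and 0 in E690K. In CPM that is 1.11 and 1.60 in WT, 0.0267 and 0 in KO, 0.235 and 0.255 in L101P, 1.75 and 4.91 in E292V, and 0.268 and 0 in E690K. The WT and E292V libraries all lay above the other 6, with no overlap (line effect, edgeR adjusted p 0.00209). The 0 in the library labelled KO transduced allows up to 0.0955 CPM and that in transduced E690K up to 0.101 CPM, the upper ends of their intervals. ZEB1-AS1, which overlaps exons of ZEB1, had 82 to 208 counts and ZEB2-AS1 had 0, and the sources used here do not say whether strand was used in counting.

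SNAI1, encoding Snail (chromosome 20, 49982999 to 49988886, plus strand), followed nearly the same order of lines as ZEB2. It was at 5.27 and 5.24 CPM in WT, 2.35 and 1.86 in KO, 3.59 and 1.72 in L101P, 5.93 and 10.9 in E292V, and 3.60 and 4.06 in E690K. The 2 E292V libraries were highest, the WT libraries next, and the KO and L101P libraries held the 4 lowest values (line effect, edgeR adjusted p 0.00646). TWIST1, a basic helix-loop-helix factor (chromosome 7, 19020991 to 19117672, minus strand), was at 4.51 and 4.61 CPM in WT, 3.23 and 2.15 in KO, 1.94 and 2.98 in L101P, 3.36 and 5.53 in E292V, and 1.59 and 1.91 in E690K. Its line effect (edgeR adjusted p 0.0197) was lost without the WT pair (0.0560) or the E690K pair (0.168), and without either single E690K library.

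SNAI2, encoding Slug (chromosome 8, 48917604 to 48921740, minus strand), had another order. It was at 0.753 and 1.12 CPM in WT, 1.31 and 1.64 in KO, 1.54 and 1.91 in L101P, 1.55 and 3.46 in E292V, and 2.57 and 2.79 in E690K. The WT libraries were the 2 lowest of the 10. The line effect (edgeR adjusted p 0.0222) was lost without the WT pair (0.192), the E690K pair (0.0905), either WT library or the untreated E690K library, and with the labels of the KO pair exchanged (0.0616). In the order of the 5 lines by mean level, no neighbouring pair of lines passed the test for any of the 10 genes.

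Against WT, the KO line differed in 2 of the 10 genes (1.80% of all genes tested did so, 0.807% higher and 0.990% lower): ZEB2 was lower and EPCAM higher. The fitted log2 fold change of ZEB2 was -6.54 (SE 1.22, edgeR adjusted p 0.0193). Over both libraries of each line the KO line had 1 read pair and WT 113, a depth-scaled ratio of 105. Its exact 95% interval, for counting error only, was 18.5 to 4184. EPCAM was higher, at 1.25 on the same scale (SE 0.17, edgeR adjusted p 0.00434). SNAI1 was at -1.32 (SE 0.33) and missed the threshold (edgeR adjusted p 0.0707), and passed under the DESeq2 test (adjusted p 0.00367) and without the L101P pair (edgeR adjusted p 0.00144), the E292V pair (0.0348) or any single library of those pairs. ZEB2 did not pass without the transduced WT library (edgeR adjusted p 0.0652), the library labelled KO untreated (0.0611) or the one labelled KO transduced (0.279), and EPCAM did not without the last of these (1.12, 0.0794).

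**Figure D2:**
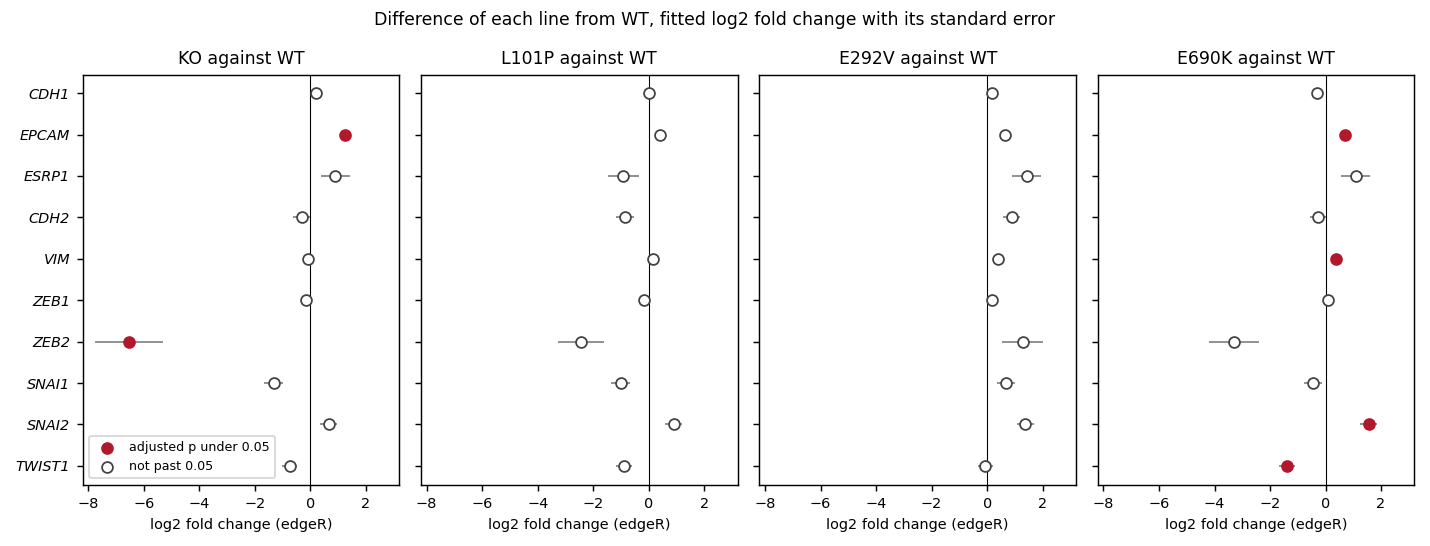
Fitted log2 fold change of each gene against WT with its standard error (edgeR), in 1 panel for each of the other 4 lines; filled points passed an adjusted p of 0.05. The KO panel has 2 filled points (ZEB2 and EPCAM), the E690K panel has 4 (EPCAM, VIM, SNAI2 and TWIST1), and the L101P and E292V panels have none.

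The E690K line differed from WT in 4 of the 10 genes, against 5.38% of all genes tested (3.05% higher and 2.33% lower), and these came from both sides of the epithelial-mesenchymal divide. VIM (log2 fold change 0.39, SE 0.09, edgeR adjusted p 0.0319) and SNAI2 (1.55, SE 0.30, 0.0114) were higher. EPCAM was higher as well (0.71, SE 0.17, edgeR adjusted p 0.0327), and TWIST1 was lower (-1.39, SE 0.29, 0.0161). CDH1 was at -0.30 (SE 0.13, edgeR adjusted p 0.220) and CDH2 at -0.27 (SE 0.31, 0.716). ZEB2 had 20 counts in the untreated and 0 in the transduced E690K library. With 10 read pairs in E690K and 113 in WT, a ratio of 10.2 (5.34 to 21.8, counting error only), it missed the threshold (edgeR adjusted p 0.0538). It passed without the L101P pair (-3.26, edgeR adjusted p 0.00728) and without the untreated E690K library (0.0121), among others. Each of the 4 calls was lost when 1 of several libraries was left out: all 4 without the untreated E690K library (edgeR adjusted p 0.325 for VIM, 0.162 for SNAI2, 0.300 for EPCAM and 0.176 for TWIST1). Without the untreated WT library VIM (0.201), SNAI2 (0.0933) and TWIST1 (0.109) were lost, and without the transduced WT library VIM (0.0718), SNAI2 (0.0544) and EPCAM (0.221). Without the transduced E690K library VIM (0.104), EPCAM (0.125) and TWIST1 (0.133) were lost. With the labels of the KO pair exchanged VIM was lost (0.102), as it was without the KO pair (0.0609) or the library labelled KO transduced (0.0508), and EPCAM was lost without the KO pair (0.0576).

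In E292V 0 of the 10 genes passed against WT (1.05% of all genes did, 0.295% higher and 0.756% lower, and 1857 genes had an unadjusted p under 0.05). SNAI2 came nearest (log2 fold change 1.38, SE 0.30, edgeR adjusted p 0.0548), followed by VIM (0.38, SE 0.09, 0.0967) and EPCAM (0.65, SE 0.17, 0.122), and CDH2 was at 0.89 (SE 0.30, 0.269). This count of 0 depended on the L101P pair, which enters the shared error: without it CDH2 (edgeR adjusted p 0.000829), VIM (0.00891), SNAI2 (0.0107) and EPCAM (0.00548) passed, at fold changes within 0.01 of those above. Leaving out either single L101P library also gave 4 calls, leaving out the untreated E292V library gave 2, and the DESeq2 test gave 3.

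In L101P 0 of the 10 genes passed against WT as well, where 3.94% of all genes did (2.33% higher and 1.61% lower) and 3292 genes had an unadjusted p under 0.05. TWIST1 was at -0.90 (SE 0.28, edgeR adjusted p 0.105), SNAI1 at -1.01 (SE 0.33, 0.121), ZEB2 at -2.45 (SE 0.82, 0.128), SNAI2 at 0.90 (SE 0.31, 0.132) and CDH2 at -0.86 (SE 0.31, 0.160). Without the untreated L101P library, so that the line was represented by the transduced one, CDH2 (-1.69, edgeR adjusted p 3.19e-07), SNAI1 (-1.71, 0.000258) and EPCAM (0.68, 0.00638) passed. SNAI1 also passed under the DESeq2 test (adjusted p 0.0361) and without either E292V library (edgeR adjusted p 0.0321 and 0.0348), ZEB2 passed without the E690K pair or either library of it (0.0455, 0.0354 and 0.0340), and TWIST1 without the transduced L101P library (-1.18, 0.0491).

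Between the lines other than WT, 15 of 60 gene and pair combinations passed. E292V was higher than KO in CDH2 (log2 fold change 1.21, edgeR adjusted p 0.0252), VIM (0.47, 0.00713), ZEB2 (7.82, 0.00151) and SNAI1 (2.01, 0.00251) and lower in EPCAM (-0.60, 0.0424), where 10.7% of all genes differed (4.77% higher and 5.90% lower). Against L101P, where 13.8% of all genes differed (5.61% higher and 8.16% lower), E292V was higher in CDH2 (1.75, edgeR adjusted p 0.00307), ZEB2 (3.73, 0.0112), SNAI1 (1.69, 0.00541) and ESRP1 (2.35, 0.0142). E690K was lower than E292V in CDH1 (-0.47, edgeR adjusted p 0.0397), CDH2 (-1.16, 0.0314), ZEB2 (-4.58, 0.00693), SNAI1 (-1.14, 0.0430) and TWIST1 (-1.33, 0.0106), where 10.4% of all genes differed (5.98% higher and 4.42% lower). The remaining call was VIM, higher in E690K than in KO (0.48, edgeR adjusted p 0.0247), where 1.64% of all genes differed (0.946% higher and 0.695% lower). L101P against KO (0.139% of all genes, 0.0556% higher and 0.0834% lower) and E690K against L101P (0.690%, 0.356% higher and 0.334% lower) gave 0 calls among the 10 genes. The E292V line thus took part in 14 of the 15 calls, and these contrasts share its libraries. Of the 15 calls, 12 were lost in at least 1 alternative, and the 3 kept in each that tested them were ZEB2 and SNAI1 against KO and CDH2 against L101P. Leaving out the transduced E292V library ended 9: CDH2, VIM and EPCAM against KO, ZEB2 and SNAI1 against L101P, and CDH2, ZEB2, SNAI1 and TWIST1 against E690K. CDH1 in E690K against E292V was lost without the untreated E292V library (edgeR adjusted p 0.344), any KO library or either E690K library, and VIM in E690K against KO without any single library of those 2 lines. ESRP1 was lost without the untreated L101P (edgeR adjusted p 0.0559) or the untreated E292V library (0.110).

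Transduction was compared with no treatment over the 5 lines, each line being its own control. Of the 10 genes 0 passed, as did 0.00% of all genes tested (the smallest edgeR adjusted p was 0.109, and 1236 of 17978 genes fell under 0.05 before adjustment). The EGFP levels above bear on this comparison, since 4 of the 5 untreated libraries had at least 16.5 CPM of it. The log2 ratio of transduced to untreated for VIM was above 0 in 5 of 5 lines, from 0.06 in L101P to 0.46 in E292V, with a fitted value of 0.20 (SE 0.06, edgeR adjusted p 0.445). SNAI2 was also above 0 in 5 of 5 lines, from 0.12 in E690K to 1.15 in E292V (0.50, SE 0.19, edgeR adjusted p 0.609). In both genes the KO ratio follows the labels of its pair and would fall below 0 with them exchanged. CDH2 was above 0 in 4 lines and below in L101P, and the same holds for its KO ratio. ZEB2 was above 0 in the 3 lines with a ratio and had 0 counts in the transduced library of the other 2, and the remaining 6 genes had values on both sides of 0.

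CDH2 and SNAI1 moved in opposite directions in L101P and E292V. The log2 ratio of CDH2 was -0.86 in L101P and 1.04 in E292V, with 0.85 in WT, 0.39 in KO and 0.17 in E690K. That of SNAI1 was -1.06 in L101P and 0.87 in E292V, with -0.01 in WT, -0.33 in KO and 0.17 in E690K. With 1 library a side these differences between lines were not tested, and the intervals of the 2 libraries did not overlap for either gene in either of the 2 lines. E292V had 3 of the 10 genes past a 2-fold difference (CDH2, ZEB2 at 1.49 and SNAI2 at 1.15), L101P had 1 (SNAI1), and WT, KO and E690K had none among the genes with a ratio. Without the L101P pair CDH2 was higher after transduction (log2 fold change 0.62, SE 0.10, edgeR adjusted p 0.00741), and without either single L101P library VIM passed beside CDH2 (0.23, edgeR adjusted p 0.0369 and 0.0373).

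**Figure D3:**
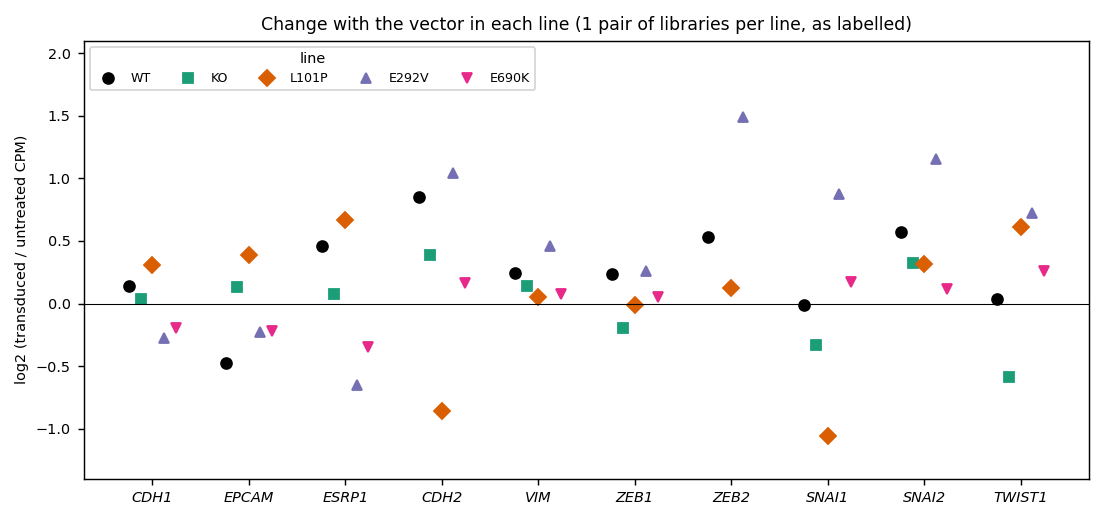
Log2 ratio of the transduced to the untreated library for each gene, 1 point per line, as labelled; no ratio is drawn for ZEB2 in KO and E690K, whose transduced libraries had 0 counts. VIM and SNAI2 are above 0 in 5 of 5 lines, and CDH2 and SNAI1 are near -1 in L101P and near 1 in E292V.

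Levels of different genes were compared per kilobase of the principal transcript. The ratio of CDH2 to CDH1 was 1.24 in untreated WT and 2.03 in transduced WT, 0.993 and 1.26 in KO, 1.24 and 0.551 in L101P, 1.65 and 4.11 in E292V, and 1.46 and 1.88 in E690K. N-cadherin transcripts were thus below E-cadherin transcripts in transduced L101P and, by less than 1%, in the library labelled KO untreated, and above them in the other 8. The ratio of VIM to CDH1 ran from 25.2 in the library labelled KO untreated to 57.2 in transduced E690K, and SNAI1 exceeded SNAI2 in every library, with SNAI2 at 0.0992 of SNAI1 in untreated WT and 0.772 in transduced L101P. ZEB1 exceeded ZEB2 in every library, by 28.4 and 12.1 times in E292V, 40.4 and 32.9 in WT, 185 and 169 in L101P, 192 in untreated E690K and 1741 in the library labelled KO untreated (2 counts of ZEB2), and ZEB2 had 0 counts in the other 2 libraries.

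**Figure D4:**
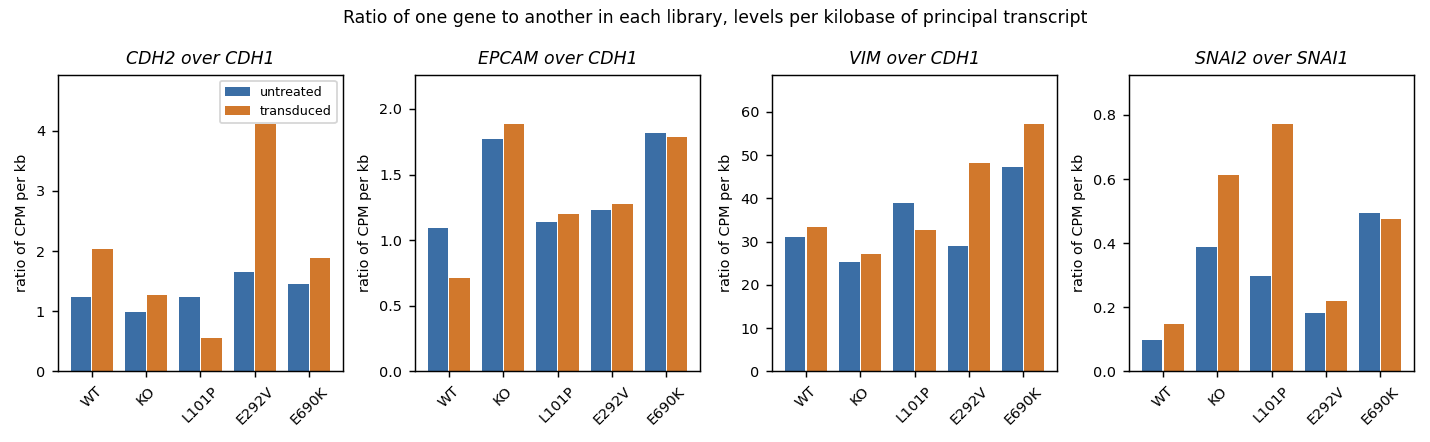
Ratios between pairs of the genes in each library, from levels in CPM per kilobase of principal transcript, for untreated (blue) and transduced (orange) libraries. The ratio of CDH2 to CDH1 reaches 4.11 in transduced E292V and 0.551 in transduced L101P.

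Over the 10 libraries, which share lines in pairs, the highest correlations were among the mesenchymal genes and the repressors. On the scale of log2(CPM + 0.5), VIM followed SNAI2 (Pearson r 0.90), and ZEB2 followed SNAI1 (0.87) and TWIST1 (0.80). CDH2 followed SNAI1 (0.83) and ZEB2 (0.75), and ZEB1 followed SNAI1 (0.79) and VIM (0.76). The rank correlations (Spearman) of these pairs were lower, from 0.50 for CDH2 with ZEB2 to 0.85 for VIM with SNAI2. Other pairs of the same genes were low: TWIST1 with SNAI2 (Pearson r -0.27) and VIM (-0.04), and SNAI2 with ZEB2 (0.08) and SNAI1 (0.21). The transduced E292V library was the highest for each of these genes. CDH1 had no correlation below -0.46, the value with VIM, and its correlation with CDH2 was 0.06. ESRP1 was at 0.545 with EPCAM and 0.53 with CDH2. Among genes averaging 10 CPM or more, those most like each of the 9 better expressed genes included ZFHX4 for CDH2 (r 0.96), CDV3 and RBFOX2 for VIM (0.97 and 0.94), RBFOX2 for SNAI2 (0.97), ITGA11 for ZEB2 (0.98), TARS for SNAI1 (0.98), THUMPD3 for TWIST1 (0.98), CHN1 for ZEB1 (0.95), CWC25 for EPCAM (0.95) and TTC23 for CDH1 (0.95). These are among the 3 highest of about 9460 correlations each and are given as a description.

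Other genes of the 2 states were counted in lists. These lists were chosen with earlier results of these data known, so shares beside those over all genes are given as a description. Mesenchymal structural and matrix genes differed among the lines in 31 of 43 tested genes (72.1%), other epithelial identity genes in 14 of 25, epithelial junction and polarity genes in 8 of 31, and other transition factors and their inducers in 8 of 25, where 13.0% of all genes did. Against WT the mesenchymal list had 3 genes higher and 8 lower in KO, 4 higher and 7 lower in L101P, 3 higher and 0 lower in E292V, and 10 higher and 6 lower in E690K. These are 25.6%, 25.6%, 6.98% and 37.2% of the 43 genes, beside 1.80%, 3.94%, 1.05% and 5.38% of all genes. Its median log2 fold change was 0.35 in E292V, where that of KO was -0.35, that of L101P -0.23 and that of E690K -0.06, beside medians between -0.02 and 0.00 over all genes, and 41 of the 43 were above 0 in E292V. Without the L101P pair the E292V counts became 10 higher and 1 lower and the KO counts 6 and 16, and with the KO labels exchanged the KO counts became 1 and 5. In E690K the total of 16 became 24 without the L101P pair and 10 with the KO labels exchanged. The calls over all genes moved as well: in KO they were 323 in the main fit, 1124 without the L101P pair and 142 with the KO labels exchanged. Leaving out single lines or libraries moved those in E292V between 13 and 810 and those in E690K between 169 and 2147.

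In KO, L101P and E690K the mesenchymal genes did not move as a block. MYL9, a myosin light chain, was lower in KO (log2 fold change -3.22, edgeR adjusted p 0.000195), L101P (-2.60, 0.000765) and E690K (-1.77, 0.00179), and so was the gelatinase MMP2 (-2.47, -1.97 and -1.31, with edgeR adjusted p 0.00268, 0.00521 and 0.0229). TNC, the matrix protein tenascin C, was higher in the same 3 lines (1.87, 1.97 and 2.46, edgeR adjusted p 0.00378, 0.00198 and 0.000273). The comparisons share the WT libraries. MYL9 was at 7.97 and 5.77 CPM in WT and 9.01 and 9.85 in E292V, and between 0.572 and 2.08 in the other 6 libraries. TNC was at 4.71 and 7.07 CPM in WT, 6.43 and 3.87 in E292V, and 16.6 to 34.3 in the other 6, so that for both genes WT and E292V lay on one side, as for ZEB2. In E292V the proteoglycan VCAN (log2 fold change 2.39, edgeR adjusted p 1.55e-05), the actin-binding TAGLN (1.62, 0.00717) and the collagen COL1A1 (1.42, 0.0214) were higher than in WT. VCAN was also higher than in WT in KO (0.82, edgeR adjusted p 0.0139) and E690K (1.35, 0.000280). TAGLN was lower than in WT in KO (-1.26, edgeR adjusted p 0.0139), L101P (-1.29, 0.00882) and E690K (-0.87, 0.0359). The summed level of the 10 fibroblast markers, mostly COL1A1 and THY1, was highest in the same line as CDH2: it was 97.7 and 149 CPM in E292V, 47.2 and 67.4 in WT, and 24.4 to 44.3 in the other 6 libraries. COL1A2, COL3A1, DCN, FAP, PDGFRA and PDGFRB stayed under 1 CPM and POSTN at 0, and the part of other cell types in these values was not tested.

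**Figure D5:**
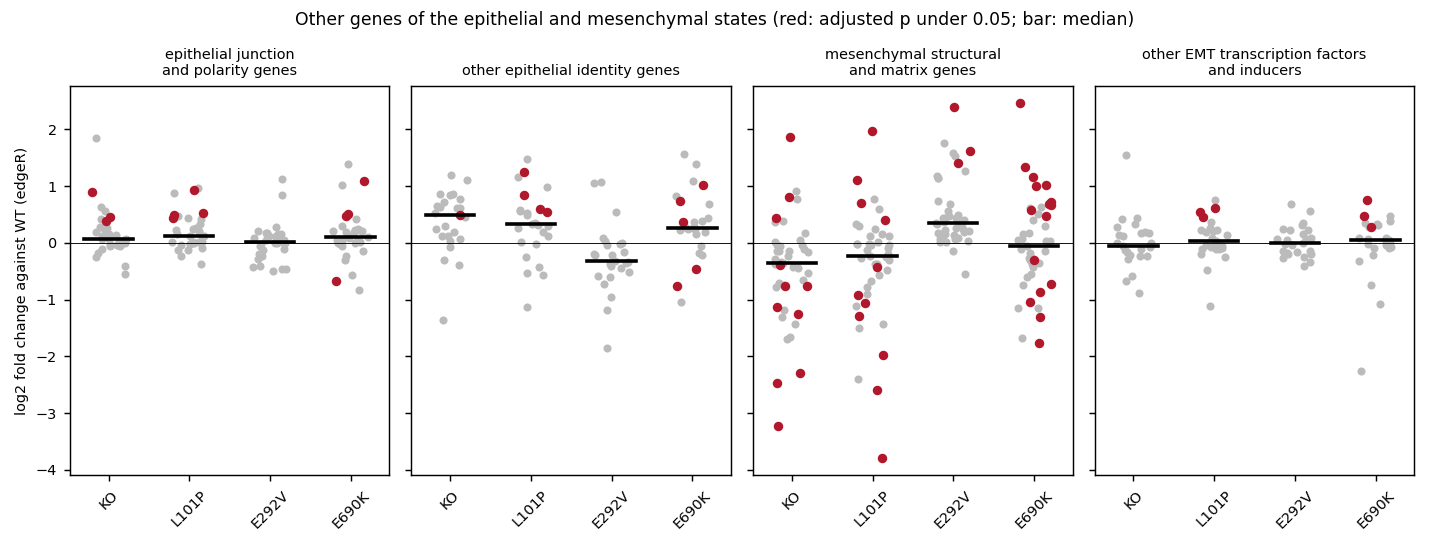
Log2 fold change against WT (edgeR) for each tested gene of 4 lists, by line; red points passed an adjusted p of 0.05 and the bar is the median of the list. The mesenchymal list has calls on both sides of 0 in KO, L101P and E690K, and its median is 0.35 in E292V.

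Most calls in the epithelial lists were higher than in WT. Of the 31 junction genes, 3 were higher in KO (9.68% called), 4 in L101P (12.9%) and 3 in E690K, with 1 lower in E690K (12.9%), where 1.80%, 3.94% and 5.38% of all genes were called. E292V had 0, where 1.05% of all genes were called. The desmosomal cadherin DSG2 (log2 fold changes 0.38, 0.45 and 0.47, edgeR adjusted p 0.0321, 0.00967 and 0.00485) and periplakin, PPL (0.89, 0.93 and 1.09, edgeR adjusted p 0.0285, 0.0143 and 0.00411), were higher in KO, L101P and E690K. The tight-junction gene CGN was lower in E690K (-0.66, edgeR adjusted p 0.0277). Of the 25 other epithelial genes, 1 was higher in KO (4%), 4 in L101P (16%) and 3 in E690K, where 2 were lower (20%), and 0 passed in E292V. Their median log2 fold change was -0.31 in E292V, 0.50 in KO, 0.33 in L101P and 0.27 in E690K, beside -0.02 to 0.00 over all genes. Of the 25, 5 were above 0 in E292V, 21 in KO, 19 in L101P and 19 in E690K. Keratin 19, KRT19, was higher in L101P (1.24, edgeR adjusted p 0.0211) and E690K (1.03, 0.0368), and the epithelial transcription factor ELF3 was lower in E690K (-0.46, 0.0368). With the KO labels exchanged the calls in KO fell to 0 for both epithelial lists, and those of other epithelial genes in L101P to 0. Without the L101P pair the calls of other epithelial genes became 7 in KO, 4 in E292V (all lower) and 10 in E690K, and those of junction genes 7 in KO. Over all genes the KO calls then rose from 323 to 1124, so these counts cannot be set against the 1.80% of the main fit.

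Among the factors and inducers, the type I and II TGF-beta receptor genes TGFBR1 (log2 fold change 0.45, edgeR adjusted p 0.0433) and TGFBR2 (0.54, 0.0187) and the forkhead gene FOXC1 (0.62, 0.0421) were higher in L101P. HMGA2, a chromatin protein (0.76, edgeR adjusted p 0.00472), TGFBR1 (0.48, 0.0268) and the TGF-beta mediator SMAD3 (0.29, 0.0425) were higher in E690K, which is 12% of the 25 genes in either line beside 3.94% and 5.38% of all genes. In KO and E292V 0 of 25 passed, where 1.80% and 1.05% of all genes did, so these counts are near the background. Without the L101P pair 4 passed in KO, 3 in E292V and 9 in E690K, and without the KO pair 1 was left in L101P. Over all genes the KO calls rose from 323 to 1124 without the L101P pair, so the shares of the main fit do not apply to these counts. Of 15 tested corepressors and regulators of the repressors, the histone methyltransferase SUV39H1 (-0.56, edgeR adjusted p 0.00994) and the deubiquitinase USP27X (-0.98, 0.0311) were lower in E292V and 0 passed in the other lines. These 2 are 13.3% of the 15, beside 1.05% of all genes, and without the KO pair 1 was left. MIR200CHG, the host gene of miR-200c, had 0 to 6 counts per library. Of 16 splicing regulators 0 passed against WT in any line. Without the L101P pair 1 did in KO, 1 in E292V and 3 in E690K, and with other scaling 1 did in E690K.

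Among 9 other tested cadherins, CDH4 was lower in KO (log2 fold change -3.36, edgeR adjusted p 0.00655), L101P (-2.72, 0.0117) and E690K (-1.79, 0.0412), at 0.606 to 2.41 CPM against 4.74 and 11.5 in WT. CDH17, the cadherin of intestinal epithelium, was higher in L101P (1.50, edgeR adjusted p 0.00624) and lower in E292V (-1.49, 0.0150). It stood at 32.7 and 36.6 CPM in WT, 66.2 and 133 in L101P, and 14.4 and 10.0 in E292V. CDH6, which averaged 0.595 CPM, was called lower in L101P and E690K and higher in E292V. With it the calls were 11.1% of the 9 in KO, 33.3% in L101P and 22.2% in E292V and in E690K. Of all genes 1.80%, 3.94%, 1.05% and 5.38% were called in KO, L101P, E292V and E690K. In each of these lists 0 genes passed for transduction. Without the L101P pair 12 of 43 mesenchymal genes did, all of them higher. So did 1 of 25 factors and inducers, 1 of 12 genes with ESRP-dependent isoforms and 1 of the 9 cadherins, also higher. Over all genes, fits with a line or library left out gave 0 to 206 calls for transduction, against 0 in the main fit.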

How the data were processed

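RNA of 10 A549 libraries was sequenced after preparation with a total-RNA kit, per the labels' protocols. The authors' deposited values are unnormalized gene counts in whole numbers (33551 genes, 10 libraries), and the submitters' processing notes name Subread, featureCounts, edgeR, limma and GRCh38 without versions. Strand and mate settings of the counting are not given in the sources used here. All value columns matched a sample, and no row without a gene name was found.

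The analysis used edgeR 4.0.16 (R 4.3.3): filterByExpr (17978 genes kept), TMM scaling, 1 additive quasi-likelihood fit of line and vector over 10 libraries, and Benjamini-Hochberg adjustment over all genes tested at 0.05. The standard error is the log2 fold change over the square root of F. The procedure was tested on simulated data. Levels are CPM of the TMM-scaled total with 95% Wilson intervals, and per-kilobase levels use the longest principal transcript of GENCODE 29, to which 98.7% of row names matched. The planned length was the union of exons, which was replaced because that of ZEB2 is 25058 bases against 9541 for its transcript. Untreated and transduced libraries are paired by cell line, and line is the block. With 1 library per line and vector status, p-values measure only the spread between these samples around additive effects. The quasi-likelihood fit moderates that spread with information from all genes tested, so it does not rest on the residual degrees of freedom of each gene alone.

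Alternatives were other scaling, other filters, the DESeq2 1.42.0 test, each line or library left out, and exchanged KO labels. The 10 genes are always named; from each list, up to 3 genes a direction with the smallest adjusted p under 0.05 and averaging 1 CPM or more were eligible in each comparison with WT; and for each of the 10 genes averaging 1 CPM or more, the 3 most correlated genes among those averaging 10 CPM or more. The members and the lists were chosen with earlier results of these data known. Some results are not reported here.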

Additional observations from a re-analysis of the deposited data

Results flagged for a closer look

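Of 28 sets of 4 or 5 values examined for a single extreme value, 1 lay beyond the limit. Chance gives about 1 in 20, so 1 of 28 is no more than chance gives. Among the 5 untreated libraries, the CDH2 level of E292V was 5.69 in log2 CPM, and the nearest library was at 5.01. The distance between them came to 0.786 of the spread from lowest to highest, over the limit of 0.71 for 5 values.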

How the results depend on the processing

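Counts of calls among the 10 genes, out of 10 a comparison, moved with the filter, the test and single lines, and 0 calls reversed. Without a filter on low counts the calls were 4 in L101P and 4 in E292V against WT and 25 over the other pairs of lines. With at least 10 counts in every library 1 call was left in KO, where ZEB2 was not tested, and the DESeq2 test gave 1 in L101P and 3 in E292V. Leaving out 1 library or 1 line gave 5 to 9 calls for the line effect, 0 to 3 for KO, 0 to 3 for L101P, 0 to 4 for E292V, 1 to 5 for E690K, 0 to 2 for the vector effect and 1 to 25 for the other pairs. The vector effect had 0 calls without the replicate block as well as with it. With the KO labels exchanged the counts were 6 for the line effect, 2 for KO, 0 for L101P, 0 for E292V, 3 for E690K, 0 for the vector and 10 for the other pairs. Over all genes the calls in KO, L101P, E292V and E690K were 323, 709, 189 and 967, against 982, 1437, 662 and 1659 with no filter, 744, 1236, 432 and 1464 under DESeq2, and 142, 367, 105 and 599 with the KO labels exchanged. Leaving out 1 library or 1 line moved them to 25 to 1226, 180 to 1967, 13 to 810 and 169 to 2147, so the shares of all genes beside the counts move as widely. The line effect had 2337, and 3661 with no filter, and the vector effect had 0, with 237 without a filter and 113 under DESeq2. With plain library totals, 95 of 100 levels stayed within their intervals and 5 levels of VIM did not. The cause of these shifts was not tested, and depth limits ESRP1 and ZEB2, with as few as 8 and 0 counts. The list counts under exchanged KO labels, other scaling and left-out pairs were chosen after seeing the data.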
